A study of Rattus norvegicus with 6 samples.

Results

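The Mx and OAS antiviral effector genes were examined in rat PC12 cells with and without overexpression of PCBP-1. The members were the rows of the gene count table with the symbols Mx1, Mx2, Oas1a, Oas2, Oasl and Oasl2, which gave 6 of the 20609 genes listed. PC12 is a line derived from a rat adrenal pheochromocytoma, and PCBP-1 is a poly(C)-binding protein that binds RNA and single-stranded DNA. The 3 control libraries came from PC12 cells given a control plasmid and the 3 PCBP1-OE libraries from PC12 cells given a PCBP-1 plasmid; the methods describe the transgene as a PCBP-1 fusion carried on a plasmid and delivered by lipofection, so both groups received foreign DNA. Whether the control plasmid carries the same tag is not stated in the labels or the methods. The paper calls the replicates biological without saying that they were separate cultures, so p-values may measure only technical spread between these libraries. The measurement was poly(A) RNA-seq, read as counts of uniquely mapped reads per gene and as CPM (counts scaled to a common library total) with TMM-scaled totals.

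The genes were chosen by their expression in these same libraries, having been seen to be higher in PCBP1-OE than in control. Their contrast between control and PCBP1-OE is therefore given as a description. Where it is said below that a member was called in the fit over all genes, the call rests on the values that chose the gene and is not a test of it. What was examined beyond the rule was the members' spread between libraries, their relatives, their neighbours, their promoters and the rest of the interferon system.

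Mx proteins are dynamin-like GTPases induced by type I and type III interferon that assemble on viral ribonucleoproteins and block virus replication. OAS proteins are nucleotidyltransferases that, on binding double-stranded RNA, join ATP into 2′-5′ linked oligoadenylates (a second messenger that sets off the breakdown of viral and cellular RNA). OASL proteins share the OAS fold and carry ubiquitin-like domains. Secreted interferon reaches these genes through its receptor, JAK kinases and the transcription factor complex ISGF3, which binds the interferon-stimulated response element (ISRE) in their promoters.

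The sequence upstream of the start of 4 of the 6 members was taken from RefSeq on the assembly GRCr8, as 250 bases ending at the base before the start and written on the strand of the gene. They are shown because members that differ together between groups invite a look at the element through which interferon acts. Capitals mark matches to the ISRE core (the letters GAAA, then 2 bases of any kind, then GAAA again), searched on both strands, or to the GAS element, the interferon-gamma type of site, TTCNNNGAA, which reads the same on both strands.
Mx1, chr11:50294607-50294856, minus strand: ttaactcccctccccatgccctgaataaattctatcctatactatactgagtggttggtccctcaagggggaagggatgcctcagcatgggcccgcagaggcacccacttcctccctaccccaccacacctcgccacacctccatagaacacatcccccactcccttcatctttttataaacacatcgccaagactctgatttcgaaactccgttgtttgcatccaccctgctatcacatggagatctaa
Oas1a, chr12:41330216-41330465, plus strand: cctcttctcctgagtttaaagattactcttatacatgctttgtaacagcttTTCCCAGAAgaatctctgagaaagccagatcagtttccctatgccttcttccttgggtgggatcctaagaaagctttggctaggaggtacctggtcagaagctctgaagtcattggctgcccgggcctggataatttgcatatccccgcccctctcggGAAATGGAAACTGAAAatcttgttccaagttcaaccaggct
Oasl, chr12:47356293-47356542, minus strand: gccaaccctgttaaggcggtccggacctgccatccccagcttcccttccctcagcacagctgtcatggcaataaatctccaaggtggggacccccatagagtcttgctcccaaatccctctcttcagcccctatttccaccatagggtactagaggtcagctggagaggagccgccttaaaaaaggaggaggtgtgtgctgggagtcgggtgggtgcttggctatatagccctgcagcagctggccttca
Oasl2, chr12:47383186-47383435, minus strand: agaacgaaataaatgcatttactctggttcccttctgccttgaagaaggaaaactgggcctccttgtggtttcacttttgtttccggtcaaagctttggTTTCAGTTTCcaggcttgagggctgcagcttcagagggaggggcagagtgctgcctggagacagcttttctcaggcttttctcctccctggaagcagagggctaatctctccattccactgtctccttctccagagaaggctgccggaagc

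The ISRE core was found in 2 of these 4 windows. In Oas1a it occurred at 41 and at 35 bases before the start, as 2 copies that overlap and share the letters GAAA, and the same window held a GAS match. In Oasl2 a single copy lay on the opposite strand, 151 bases before the start. No core was found in the windows of Mx1 and Oasl, which says only that these letters are not in these 250 bases. Over all 33469 RefSeq windows of this length, 1140 (3.41%) held the ISRE core and 2566 (7.67%) the GAS letters. Windows were at hand for 11 of the 14 members and relatives looked up, and 5 of those 11 held the core. For Oas1i and Oas3, relatives of the members whose transcripts were barely counted here, the 30 bases around the core are shown beside those of Oas1a and Oasl2 for comparison.
Oas1a: tcggGAAATGGAAACTGAAAatcttgttcc
Oasl2: aaagctttggTTTCAGTTTCcaggcttgag
Oas1i: ccggGAAATCGAAACTGAAAatctggttcc
Oas3: gcagagaggaGAAAACGAAAgtgaatgatc
The Oas1i stretch also carried an overlapping pair of cores, whose first copy is not spelled as in Oas1a, and Oas3 carried a single core. Mx2, Oas2 and Oas1k had no window. A match of letters is a description of the sequence and not a binding site.

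Library totals ranged from 19730209 to 22315623 counts. Of the 20609 genes, 12624 passed the filter on low counts and were tested with edgeR's quasi-likelihood test, and the median log2 fold change of PCBP1-OE over control was 0.00292. The table holds no row for Pcbp1, so the overexpression itself was not checked here. Chromaffin identity was examined through 9 matched marker genes. Th (tyrosine hydroxylase) had 141 to 185 counts per library and Scg2 (secretogranin II) 2607 to 3553, whereas Dbh, Chga, Chgb, Ddc and Phox2a had 0 to 9 counts in every library. Of the glial and fibroblast genes, Sox10 had 7160 to 9007 counts and Pdgfra 3939 to 4941 in all 6 libraries. The summed level of the glial and fibroblast list was 846.6 to 893.3 CPM in control and 795.6 to 805.5 CPM in PCBP1-OE, that of the chromaffin list 150.7 to 180.2 and 138.9 to 153.1 CPM, and that of the leukocyte list 11.17 to 12.22 and 9.466 to 10.72 CPM. Of the 8 leukocyte genes matched, Cd68, Cd74 and Cd3e had 52 to 110 counts in every library and the other 5, among them the pan-leukocyte gene Ptprc, had 0 to 6. None of the tested genes of the 3 lists (3, 6 and 3 genes) passed an FDR of 0.05 in edgeR. At an unadjusted p under 0.05 were 1, 3 and 0 genes of the chromaffin, glial and leukocyte lists, and DESeq2 called 1 glial gene. Over all genes tested, edgeR called 4.45% higher and 5% lower, so an absence of calls in lists this short says little. The part of these lists in the results below was not tested. In bulk RNA, more cells expressing a gene and more RNA per cell cannot be told apart.

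All 6 members passed the filter on low counts, Oas2 only through its PCBP1-OE libraries, and were higher in PCBP1-OE than in control, and in each of them the 3 PCBP1-OE libraries lay above the 3 control libraries. The fold of the group difference ran from 1.21 for Oasl2 to 4.4 for Oas2. The median log2 fold change of the 6 was 1.15, beside 0.00292 over all genes tested. The 6 members were called at an FDR of 0.05, where 562 genes (4.45%) were called higher and 631 (5%) lower, and 4 of them (Mx1, Mx2, Oas1a and Oas2) were among the 20 genes (0.158%) called higher by at least 2-fold. Groups did not overlap, with PCBP1-OE higher, in 1783 genes (14.1%). Since the members were chosen for this contrast, nothing is read from their counts against those shares.

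**Figure D1:**
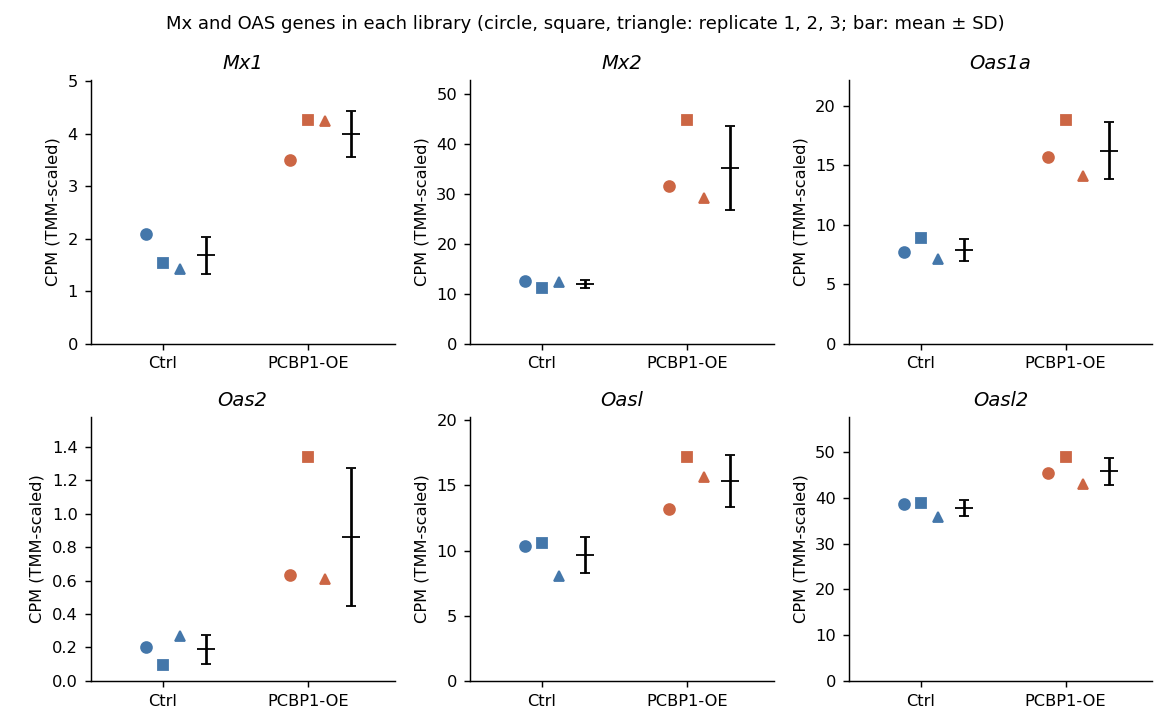
TMM-scaled CPM (vertical axis, from 0) of the 6 Mx and OAS genes in each control and PCBP1-OE library, with circles, squares and triangles for replicates 1, 2 and 3 and a bar for the group mean ± SD. Every PCBP1-OE point lies above every control point of the same gene, with the widest gap relative to the controls in Mx2 and Oas2 and the narrowest in Oasl2, and PCBP1-OE replicate 2 is the highest library for each gene.

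Mx2 (ENSRNOG00000001963, chromosome 11) had 247, 231 and 275 counts in control replicates 1, 2 and 3, and 697, 905 and 573 counts in PCBP1-OE replicates 1, 2 and 3. As levels these were 12.6, 11.1 and 12.3 CPM against 31.6, 44.9 and 29.3 CPM. The lowest PCBP1-OE library stood 2.32 times above the highest control library, and replicate 2 was well above the other PCBP1-OE libraries. The group means were 12 ± 0.804 and 35.2 ± 8.41 CPM (SD, n = 3 each), which is a log2 fold change of 1.56 (SE 0.14) or 2.94-fold, rank 11 among all genes tested. The coefficient of variation was 6.72% in control, close to the 6.31% that counting alone gives, and 23.8% in PCBP1-OE, where counting gives 3.71%.

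Mx1 (ENSRNOG00000001959, chromosome 11), another Mx gene, was counted far less often. It had 41, 32 and 32 counts in control and 77, 86 and 83 in PCBP1-OE, or 2.09, 1.53 and 1.43 CPM against 3.49, 4.26 and 4.24 CPM. Here the spread within each group was near counting error, with a coefficient of variation of 21.2% against 16.9% from counting in control and 10.9% against 11% in PCBP1-OE. The means were 1.68 ± 0.357 and 4.0 ± 0.436 CPM (SD, n = 3 each), and the log2 fold change was 1.25 (SE 0.21) or 2.38-fold. The library that stood out was control replicate 1, and without it the log2 fold change of Mx1 was 1.44.

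Among the synthetases, Oas1a (ENSRNOG00000001369, chromosome 12), an OAS1-type enzyme gene of the rat, had 151, 186 and 159 counts in control and 347, 380 and 277 in PCBP1-OE. Its levels were 7.70, 8.91 and 7.09 CPM in control and 15.7, 18.8 and 14.1 CPM in PCBP1-OE. The groups stayed apart, the lowest PCBP1-OE library at 1.59 times the highest control library. The means of 7.90 ± 0.927 and 16.2 ± 2.38 CPM (SD, n = 3 each) gave a log2 fold change of 1.04 (SE 0.13), or 2.06-fold, just above the 2-fold line. It fell below that line without PCBP1-OE replicate 2, at a log2 fold change of 0.92, and without control replicate 3, at 0.965.

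Oas2 (ENSRNOG00000049282, chromosome 12), which encodes the OAS form with a tandem pair of OAS units, showed the largest fold of the 6 members on the fewest counts. It passed the filter only through the group in which it was high, so that it could be tested at all only because of that difference. The control libraries had 4, 2 and 6 counts, with exact Poisson 95% intervals of 1.09 to 10.2, 0.242 to 7.22 and 2.20 to 13.1. The PCBP1-OE libraries had 14, 27 and 12 counts, with intervals of 7.65 to 23.5, 17.8 to 39.3 and 6.20 to 21.0. These intervals cover counting error only. The interval of each control library overlapped that of at least 1 PCBP1-OE library, although no value did. The means were 0.189 ± 0.0868 and 0.862 ± 0.413 CPM (SD, n = 3 each). The log2 fold change was 2.14 (SE 0.52), and this value was 1.68 without PCBP1-OE replicate 2 and 2.48 without control replicate 3. Oas2 was thus at or near the limit of this depth in control, where a floor of 3 counts per library corresponds to 0.134 to 0.153 CPM.

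The OAS-like genes differed less. Oasl (ENSRNOG00000001187, chromosome 12) had 203, 221 and 180 counts in control and 290, 346 and 307 in PCBP1-OE, or 10.4, 10.6 and 8.03 CPM against 13.2, 17.1 and 15.7 CPM. PCBP1-OE replicate 1 was only 1.24 times the highest control library. The means of 9.66 ± 1.42 and 15.3 ± 2.02 CPM (SD, n = 3 each) gave a log2 fold change of 0.67 (SE 0.13), or 1.59-fold.

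Oasl2 (ENSRNOG00000028814, chromosome 12) had the highest counts and the smallest fold of the 6 members. It had 758, 811 and 805 counts in control and 1000, 986 and 845 in PCBP1-OE, or 38.7, 38.9 and 35.9 CPM against 45.4, 48.9 and 43.1 CPM. The lowest PCBP1-OE library exceeded the highest control library by a factor of 1.11. The log2 fold change was 0.28 (SE 0.06), or 1.21-fold, rank 1677 among all genes tested, from means of 37.8 ± 1.65 and 45.8 ± 2.89 CPM (SD, n = 3 each). Its spread was the smallest of the members, at a coefficient of variation of 4.37% in control and 6.30% in PCBP1-OE.

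Ordered by log2 fold change, the members ran Oas2, Mx2, Mx1, Oas1a, Oasl and Oasl2. The steps from Oas2 to Mx2 (0.581), from Mx2 to Mx1 (0.307) and from Mx1 to Oas1a (0.209) were 1.09, 1.22 and 0.853 times the combined standard error of the pair. Pairs further apart in the order were not set against each other. The step from Oas1a to Oasl (0.373) was 1.99 times and that from Oasl to Oasl2 (0.390) was 2.64 times its combined standard error. The 2 OAS-like genes therefore formed the lower end of the order, as a description of values that also chose the genes.

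The calls of the members rest on the libraries that chose them, so leaving libraries out shows only how far each call hangs on 1 library and is no test of the contrast. In edgeR's quasi-likelihood test, Mx2 and Oas1a passed an FDR of 0.05 when any 1 of the 6 libraries was left out. Only 2 members passed without control replicate 2 and 3 without PCBP1-OE replicate 2, and 4 passed without control replicate 1 or without PCBP1-OE replicate 1. The fold changes kept their direction in each of these fits. They ranged from 1.14 to 1.44 (log2) for Mx1, 1.35 to 1.68 for Mx2, 0.92 to 1.14 for Oas1a, 1.68 to 2.48 for Oas2, 0.55 to 0.77 for Oasl and 0.23 to 0.32 for Oasl2.

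The members were compared with each other inside the groups, a measure that the group contrast does not enter. Each library's log2 CPM was set against the mean of its own group. PCBP1-OE replicate 2 lay above its group mean in all 6 members, by 0.096 for Mx1, 0.095 for Oasl2, 0.17 for Oasl, 0.22 for Oas1a, 0.37 for Mx2 and 0.66 for Oas2, and was the highest of its group for each. Over all genes tested, 33.7% were highest in that library. In control no single library was highest throughout, replicate 1 leading for Mx1 and Mx2, replicate 2 for Oas1a, Oasl and Oasl2, and replicate 3 for Oas2. The pairwise correlations of these deviations over the 6 libraries were above 0 for all 15 pairs, with a median r of 0.354 and a range from 0.00211 (Oas2 and Oasl) to 0.930 (Oas1a and Oasl2). The pair of Mx2 and Oas2 had an r of 0.893 and the pair of Mx1 and Mx2 an r of 0.304. In control, Oas2 had only 4, 2 and 6 counts, with a coefficient of variation of 45.9% where counting alone gives 50%. Its control deviations are thus no wider than counting error. They enter every pair with Oas2, and so the median and the mean over the 15 pairs. The mean over the 15 pairs was 0.456, and that over all pairs of tested genes was 0.000395. These points share libraries and depth, only 4 degrees of freedom remain after the group means, and PCBP1-OE replicate 2 is above its group mean in every member, so they describe these libraries and carry no test. The SD of the deviations was 0.0782 for Oasl2 and 0.188 to 0.526 for the other 5 members, against a median of 0.101 over all genes tested.

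**Figure D2:**
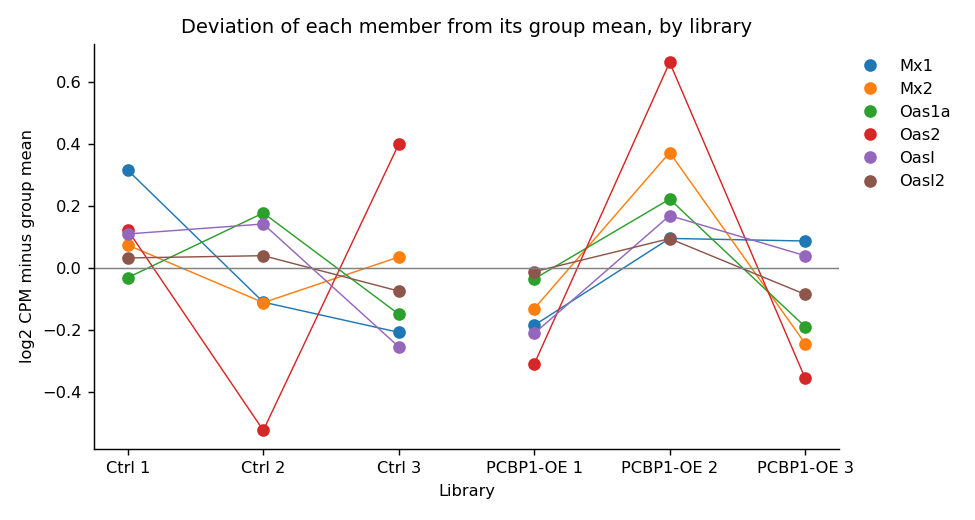
Log2 CPM of each member minus the mean of its group (vertical axis), for the 6 libraries (horizontal axis), with 1 colour per gene and lines joining libraries of a group. All 6 genes lie above 0 in PCBP1-OE replicate 2, most of all Oas2 at 0.66, while the genes are spread on both sides of 0 in each of the 3 control libraries.

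Relatives of the members in the same families were looked up by symbol. Oas1k (ENSRNOG00000033220, chromosome 12), another OAS1-type gene, had 463, 585 and 542 counts in control and 1038, 1108 and 961 in PCBP1-OE, more than Oas1a in every library. Its level rose from 25.3 ± 2.40 to 50.4 ± 4.06 CPM (SD, n = 3 each), for a log2 fold change of 0.99 (SE 0.08) with an adjusted p of 0.000162 in edgeR, and it passed in all 15 alternative fits. Only uniquely mapped reads were counted, so any reads that Oas1k and Oas1a share would be lost from both. The values of each are uncertain to that extent. How alike the sequences of these genes are was not examined. The other relatives in the table were nearly silent. Oas1i had 1, 1 and 4 counts in control and 3, 4 and 1 in PCBP1-OE, Oas1e had 1, 1 and 1 against 0, 2 and 0, and Oas3, the largest OAS form, had a single count in control replicate 1. They were under the filter, and a difference between groups was not detectable at this depth. Oas1b, Oas1d, Oas1f and Oas1h matched no row.

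The members lie in 3 clusters, as the gene order on GRCr8 shows. Mx1 and Mx2 on chromosome 11 are separated by a single coding gene, Fam3b. The OAS cluster on chromosome 12 holds Oas1i, Oas1d, Oas1a, Oas1h, Oas1f, Oas1b, Oas1e, Oas1k, Oas3 and Oas2 in that order. Of these, Oas1d, Oas1h, Oas1f and Oas1b matched no row. Oasl and Oasl2 stand next to each other elsewhere on the same chromosome. Fam3b, between the Mx genes, had 2, 0 and 0 counts in control and 0, 1 and 1 in PCBP1-OE. Of 19 coding neighbours (3 on each side of a cluster, and Fam3b), 15 were in the table and 8 were tested. Their log2 fold changes ran from -0.46 (Pcp4, SE 0.44) to 0.61 (Ripk4, SE 0.45) with a median of -0.09. None of the 8 passed an FDR of 0.05 in edgeR, DESeq2, limma-voom or edgeR's exact test, while 3 of them had an unadjusted p under 0.05. Over all genes tested, edgeR called 4.45% higher and 5% lower, so an absence of calls among 8 genes says little. Beside Mx1, the secretase gene Bace2 had a log2 fold change of -0.17 (SE 0.06). Beside the OAS cluster, the ribosomal protein gene Rpl6 and the phosphatase gene Ptpn11 had log2 fold changes of -0.09 (SE 0.05) and -0.04 (SE 0.05). The groups did not overlap in 4 of the 8 tested neighbours, beside 30.6% of all genes tested in either direction, with PCBP1-OE lower for Bace2, Sppl3 (log2 fold change -0.13, SE 0.05) and Ankrd13a (-0.09, SE 0.04) and higher for Prdm15 (0.24, SE 0.10). Dtx1, next to Oas2, was under the filter and also showed no overlap, with 4, 3 and 5 counts in control and 7, 12 and 21 in PCBP1-OE.

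**Figure D3:**
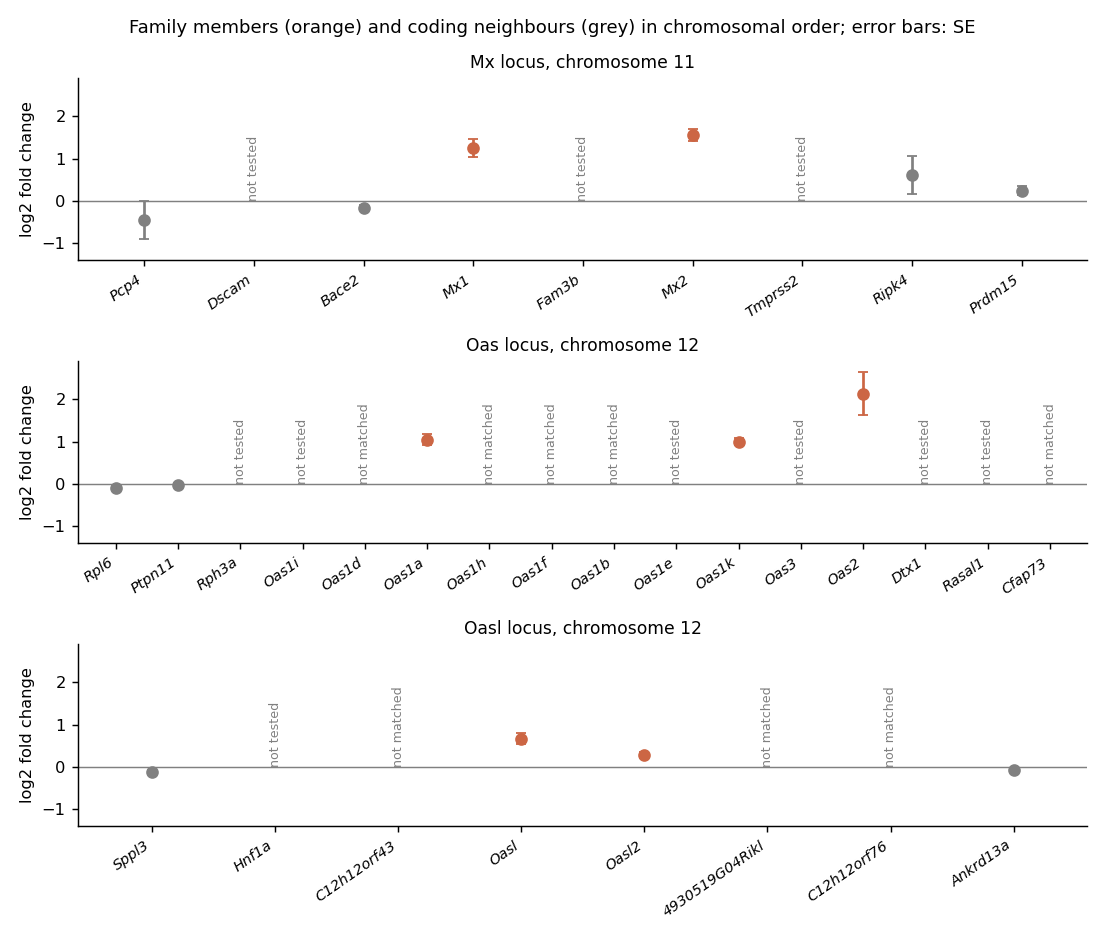
Log2 fold change of PCBP1-OE over control (vertical axis, error bars SE) for Mx and OAS family genes (orange) and their coding neighbours (grey), in chromosomal order for the Mx, Oas and Oasl clusters. Tested family genes lie between 0.28 and 2.14, and the neighbours between -0.46 and 0.61; genes below the filter or without a row are marked as not tested or not matched.

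Downstream of OAS, the genes of the 2′-5′ oligoadenylate signal and of related nucleotidyltransferases were tested for 9 genes. In edgeR 2 of them (22.2%) were called higher, beside 4.45% over all genes, none was called lower, and the median log2 fold change was 0.07. Abce1, a ribosome recycling factor, had a log2 fold change of 0.07 (SE 0.04, adjusted p = 0.270). Pde12, a phosphodiesterase that cleaves the oligoadenylates, rose by a log2 fold change of 0.33 (SE 0.09, adjusted p = 0.0394), but passed in only 1 of the 6 fits that leave out a library, that without control replicate 3, with adjusted p up to 0.162. Zfr, an RNA-binding zinc finger protein with a nucleotidyltransferase-fold domain, rose by 0.26 (SE 0.04, adjusted p = 0.00870) and lost the call without control replicate 2 (adjusted p = 0.0692) and without PCBP1-OE replicate 1 (adjusted p = 0.0573). Among the others, log2 fold changes were 0.24 (Akap7, SE 0.14), 0.05 (Ilf2), 0.03 (Strbp) and -0.12 (Enpp1, SE 0.04), none past the threshold.

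The dynamin relatives of the Mx proteins gave 1 gene called higher of 16 tested (6.25%, beside 4.45% over all genes). Of these genes for dynamins, guanylate-binding proteins and immunity-related GTPases, Igtp alone was called, with a log2 fold change of 0.50 (SE 0.10, edgeR adjusted p = 0.0137). Igtp encodes an interferon-gamma induced GTPase. It went from 16.6 ± 1.93 to 23.5 ± 1.87 CPM (SD, n = 3 each). The call was lost without control replicate 1 (adjusted p = 0.0582), control replicate 2 (0.0785) or PCBP1-OE replicate 2 (0.0747), and 4 genes of the list passed without control replicate 3. The median of the list was 0.09, and 10 of the 16 values were above 0.

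Upstream, the interferon genes themselves were hardly counted. Ifnb1 (interferon beta) had 0, 0 and 1 counts in control and 5, 1 and 1 in PCBP1-OE, under the filter. Of 7 tested ligand and receptor genes none was called higher (4.45% over all genes) and 1 was called lower (5% over all genes). The gene called lower was also the only one of the 7 at an unadjusted p under 0.05. The receptor chains of type I interferon, Ifnar1 and Ifnar2, had log2 fold changes of -0.07 (SE 0.07) and 0.20 (SE 0.09), with edgeR adjusted p of 0.563 and 0.176. Ifngr1, a chain of the interferon gamma receptor, fell by 0.16 on the log2 scale (SE 0.05, adjusted p = 0.0496), a call that was absent from 8 other fits to the 6 libraries and from 5 of the 6 fits without a library (all but that without control replicate 3), with adjusted p up to 0.170.

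The signalling genes between receptor and promoter gave 3 genes that rose among 16 tested (18.8%, beside 4.45% over all genes) and 1 that fell (5% of all genes fell), with a median log2 fold change of 0.16. Irf9, the DNA-binding subunit of ISGF3, rose by 0.53 (SE 0.10, edgeR adjusted p = 0.00978), with the call lost without control replicate 2 (adjusted p = 0.0692) and without PCBP1-OE replicate 2 (adjusted p = 0.0551). Stat2, another subunit, had a log2 fold change of 0.13 (SE 0.06, adjusted p = 0.188). Usp18, which removes ISG15 and dampens receptor signalling, rose by 0.64 (SE 0.09, adjusted p = 0.00445). Socs1, an inhibitor of JAK kinases, fell by 0.53 on the log2 scale (SE 0.15, adjusted p = 0.0461), and this call was kept only without control replicate 3 among the fits with a library left out (adjusted p up to 0.214). Irf7, the transcription factor that amplifies interferon production, had a log2 fold change of 0.73 (SE 0.23, adjusted p = 0.0593) and did not pass. Usp18 passed in all 6 fits with a library left out. The count for the list was 10 without control replicate 3 and 2 without control replicate 2 or PCBP1-OE replicate 2.

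Among the other interferon-stimulated genes, 33 were tested. Of these, 20 (60.6%) were called higher and none lower, beside 4.45% called higher over all genes, and 30 of the 33 log2 fold changes were above 0 with a median of 0.36. These genes were listed with earlier results of these libraries known, so that share is not independent evidence of their direction. Rsad2 (viperin, an antiviral radical SAM enzyme) rose from 12.5 ± 0.0110 to 23.1 ± 2.11 CPM (SD, n = 3 each), for a log2 fold change of 0.88 (SE 0.09, edgeR adjusted p = 0.000600). Ifit3, which binds foreign RNA together with other IFIT proteins, rose by 1.09 (SE 0.13, adjusted p = 0.00149). Rtp4, a chaperone of receptor transport with antiviral activity, rose by 0.89 (SE 0.12, adjusted p = 0.00266), and the chemokine gene Cxcl10 by 0.48 (SE 0.06, adjusted p = 0.00125). These 4 genes were among the 7 of the list that passed in all 6 fits with a library left out. The count for the list was 8 without control replicate 2, 9 without PCBP1-OE replicate 2, 12 without PCBP1-OE replicate 1, 13 without control replicate 1, 18 without PCBP1-OE replicate 3 and 24 without control replicate 3, and its median log2 fold change lay between 0.30 and 0.40 in these fits.

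The RNA sensors and adaptors that start interferon production gave 2 genes called higher among 10 tested (20%, beside 4.45% over all genes). None was called lower (5% over all genes). The median log2 fold change was 0.06, and 6 of the 10 values were above 0, beside 50.5% over all genes tested. At an unadjusted p under 0.05 in edgeR were 6 genes, of which 4 were higher in PCBP1-OE. The lists overlap, and Dhx58 is also counted among the other interferon-stimulated genes. Dhx58, the RIG-I-like helicase LGP2, rose by a log2 fold change of 0.92 (SE 0.16, edgeR adjusted p = 0.00870) and lost the call without control replicate 2 (adjusted p = 0.0692) among the fits with a library left out. Traf3, an adaptor ubiquitin ligase, rose by 0.43 (SE 0.12, adjusted p = 0.0419), and of the 6 fits with a library left out it passed only in that without control replicate 3, with adjusted p up to 0.179.

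**Figure D4:**
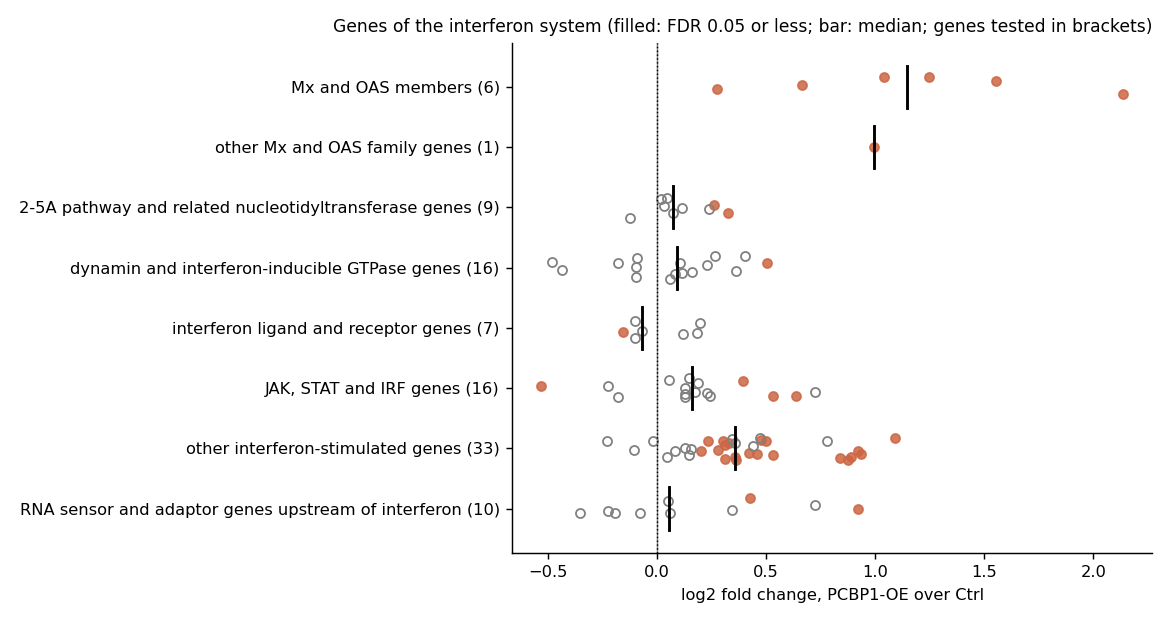
Log2 fold change of PCBP1-OE over control (horizontal axis) for each tested gene of the members and of 7 lists of the interferon system, with filled points for an FDR of 0.05 or less, a bar at the median of each list and a dotted line at the median of all genes. Members lie between 0.28 and 2.14, the other interferon-stimulated genes have a median of 0.36, and the ligand and receptor genes lie around 0 with a median of -0.07.

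The genes most like the members were found by the correlation, over the 6 libraries, of their log2 CPM with the mean of the 6 members. The 6 most alike were Nr4a2 (r = 0.995), an orphan nuclear receptor; Vps13c (0.994), a lipid transfer protein; Tbc1d32 (0.994), a protein of ciliary signalling; Apol9a (0.992), an apolipoprotein L gene; Sp4 (0.991), a zinc finger transcription factor; and Ctnnal1 (0.991), an alpha-catenin relative. Their log2 fold changes were 0.55, 0.35, 0.19, 0.71, 0.64 and 0.25. The group difference enters both sides of this correlation. When the deviations from the group means were used instead, these 6 genes had an r of 0.877 to 0.962 but were not among the 6 most alike, and the closest was Garnl3 with an r of 0.999, whose log2 fold change was -0.22 (SE 0.17). The likeness describes 6 libraries and was not tested.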

How the data were processed

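Poly(A) RNA of 6 PC12 cultures or aliquots (3 control, 3 PCBP1-OE) was sequenced, and each column was matched to its sample by the labels. The deposited values are unnormalized counts per gene. By the study's methods, FASTX-Toolkit trimmed the reads, TopHat2 placed them on Rnor_6.0 and the uniquely mapped ones were counted, which lowers counts of near-identical paralogs. The counting program, its use of strand and the gene annotation were not given in the sources used here. The submitters' processing notes name bcl2fastq, TopHat2, edgeR and the build GRCh38, whereas the gene IDs are rat.

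edgeR 4.0.16 (R 4.3.3) was run on the counts with TMM scaling, filterByExpr (minimum count 10, minimum total 15), the quasi-likelihood test and Benjamini-Hochberg adjustment over 12624 genes. SE is the log2 fold change divided by the root of its F statistic. CPM used TMM-scaled totals, and log2 CPM a prior count of 2. DESeq2 1.42.0, limma 3.58.1 and other alternatives were run, and the code was tested on simulated data. RefSeq tables of GRCr8 gave names, gene order and promoter windows. Python 3.11.15, numpy 2.4.6 and pandas 2.3.3 were used for tables, scipy 1.17.1 for Poisson intervals and matplotlib 3.10.9 for plots.

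The members and lists were chosen with earlier results of these data known. Genes named are the members, their relatives and the oligoadenylate list with a count above 0, up to 4 called genes of each other list by adjusted p, and the 6 most alike genes. Fam3b and other neighbours, the cell type markers, Garnl3, Ifnb1, Ifnar1, Ifnar2, Stat2 and Irf7 were added with their values seen. A few genes of the lists are counted but not reported by name here.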

Additional observations from a re-analysis of the deposited data

How the results depend on the processing

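The log2 fold changes of the 6 members stayed above 0 in every alternative that gave one. Oas2 was not tested when at least 1 CPM in 3 libraries was required, and DESeq2 gave it no adjusted p. All these values also lay within 1 SD of the reported one, the SD being that of the member's log2 CPM within groups. Leaving out 1 library or changing the scaling can hardly move a value further than that, so this is no test of the contrast. Counts of calls moved more. Without a low-count filter, 2090 genes in place of 1193 passed an FDR of 0.05, 72 in place of 24 passed with a 2-fold change, and 3 GTPase, 8 JAK, STAT and IRF and 5 sensor genes were called. DESeq2 gave 10 genes with a 2-fold change and edgeR's exact test 49, with 7 JAK, STAT and IRF and 5 sensor genes. The ligand and receptor call went to 0 under RLE, upper-quartile and total-count scaling, no filter, the 1 CPM filter, DESeq2, limma-voom and the replicate block. With 1 library left out, calls ranged from 48 (without control replicate 2) to 2860 (without control replicate 3) over all genes, 5 to 83 with a 2-fold change, 2 to 6 for the members, 8 to 24 for the other interferon-stimulated genes, 0 to 3 for the oligoadenylate list, 0 to 4 for the GTPases, 0 to 1 for ligands and receptors, 2 to 10 for JAK, STAT and IRF genes and 0 to 6 for sensors. The cause of these shifts was not tested.

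The groups share replicate numbers, but same-numbered libraries did not deviate together (r of -0.0776, -0.0514 and -0.0428), so the numbers were not taken to pair the samples. With the replicate block, 16 genes passed the FDR, 4 of them with a 2-fold change, and 2 members (Mx2 and Oas1a), 3 of the other interferon-stimulated genes, 1 JAK, STAT and IRF gene and 0 genes of the oligoadenylate, GTPase, ligand and receptor and sensor lists. The call of Oas1k was kept. Depth limits what can be said of Oas2, Oas1e, Oas1i, Oas3 and Ifnb1, and 3 libraries per group limit every call.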
